A study of Mus musculus with 2 samples.

Results

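The genes of the mouse MHC class II antigen presentation machinery and their master regulator Ciita were described in whole colon of mice in which the prostaglandin E2 receptor EP4 was targeted in the intestinal epithelium. The 10 members are the chain genes H2-Aa, H2-Ab1 and H2-Eb1, the invariant chain gene Cd74, the exchange factor genes H2-DMa, H2-DMb1 and H2-DMb2, the inhibitor genes H2-Oa and H2-Ob, and Ciita. They were found on the array by the RefSeq accession of each probe, and they are 10 of the 22909 genes so named, with 15 probes of 1 spot each. Most were picked because their signals on these same arrays were already known to be high, so every value of a member is a description.

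Total RNA of colon from C57BL/6 mice was hybridized to 1-colour Agilent arrays labelled with Cy3, with 1 array for Villin-Cre controls and 1 for Villin-Cre; EP4flox/flox mice (EP4 cKO). Both genotypes carry the Villin-Cre transgene, in which the villin promoter drives Cre recombinase in intestinal epithelium, so that Ptger4, the gene of EP4, is left intact in the other cells of the wall. The study used mice of 8 weeks, and by the labels each array received RNA pooled from 3 pools of colon, so a single signal stands for several animals. No spread between mice or arrays can therefore be given, and nothing was tested.

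MHC class II molecules carry peptides from endosomes to the cell surface, where CD4+ T cells read them. The α and β chains assemble with the invariant chain, encoded by Cd74, which blocks the groove until proteases cut it down, after which H2-M exchanges the remaining fragment for peptide and H2-O restrains H2-M. Dendritic cells, macrophages and B cells make class II constitutively. Epithelial cells of the gut make it when interferon-γ induces the coactivator Ciita, which acts at class II promoters through the RFX, CREB and NF-Y proteins bound there.

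Each signal below is the processed intensity of the scanner software, scaled so that the trimmed mean of each array is 2500, followed by the software's own error for the spot. That error covers the reading of 1 spot and no variation between mice. Where a pair of signals is given, Villin-Cre comes first, and the value in brackets is the log2 ratio of EP4 cKO over Villin-Cre. The software flags a probe as well above background or not, and these are called detected and dim. Of 56593 gene probes, 25683 (45.4%) were detected on the Villin-Cre-labelled array and 29177 (51.6%) on the EP4 cKO-labelled array, and no spot was saturated. Where 1 side is dim, the fold is written as "at least" and taken against the higher of the dim signal and the floor of that array. The floor, which is the lowest signal among detected probes, was 125 on the Villin-Cre-labelled array and 57.8 on the EP4 cKO-labelled array. The brighter Ptger4 probe read 6227 on the Villin-Cre-labelled array and 5661 on the other, and the second probe read 393 and 592, so the targeted gene gives no check of the labels in whole colon and each direction below rests on them.

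Class II promoters are known for a shared module, the X box bound by RFX and, a few turns of the helix downstream, the Y box bound by NF-Y. These letters are shown because the module is a feature that class II promoters are known for. The stretch that holds both patterns is shown for the 5 members that have it, and that of H2-DMb2, which has the Y letters only, is shown at the position given by the spacing in H2-DMb1. All come from the RefSeq promoter windows of GRCm38.p6 (250 bases before to 50 bases after the start of the gene). A window was found for 7 of the 10 members, all on chromosome 17. The capitals mark GNAAC, an X-box core, and TGATTGG, a Y-box core, both letter patterns having been chosen after these promoters were read. Both were searched on either strand and do not overlap each other. The stretches lie at chr17:34287863-34287910 on the minus strand for H2-Aa, and on the plus strand at chr17:34305770-34305816 for H2-Eb1, chr17:34153091-34153138 for H2-DMb1, chr17:34145120-34145167 for H2-DMb2, chr17:34238812-34238856 for H2-Ob and chr17:34092297-34092344 for H2-Oa. Each is written 5′ to 3′ on the strand of its gene.
H2-Aa: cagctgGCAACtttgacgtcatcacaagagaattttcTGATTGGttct
H2-Eb1: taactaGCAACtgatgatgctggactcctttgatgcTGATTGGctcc
H2-DMb1: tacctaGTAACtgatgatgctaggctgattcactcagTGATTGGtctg
H2-DMb2: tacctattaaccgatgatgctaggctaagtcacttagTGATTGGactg
H2-Ob: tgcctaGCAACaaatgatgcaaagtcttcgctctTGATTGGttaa
H2-Oa: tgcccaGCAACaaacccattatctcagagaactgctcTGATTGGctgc

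TGATTGG was present in 2568 of 32851 promoter windows (7.82%), and GNAAC followed by TGATTGG within 20 to 50 bases on the same strand in 280 (0.852%). Of the 7 members with a window, 5 held both in that order, the Y letters beginning 28 to 31 bases after the X letters began. The H2-DMb2 window held TGATTGG without GNAAC at that distance in front of it, although it aligned with the H2-DMb1 window at 208 of 247 bases (84.2%). Neither window of H2-DMa held TGATTGG. These letters are a description of the windows and no evidence of binding.

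The 3 chain genes were far higher on the EP4 cKO-labelled array. H2-Aa, which encodes the α chain of I-A, read 212 ± 33.7 on the Villin-Cre-labelled array and 33550 ± 3355 on the EP4 cKO-labelled array. That is a log2 ratio of 7.31, or 158-fold, with a range of 131 to 191 when both signals are moved by their errors. H2-Ab1, which encodes the β chain that pairs with it, was measured by 4 probes. The brightest read 5025 ± 503 and 298662 ± 29866, or 59.4-fold higher, and the dimmest read 530 ± 61.7 and 42303 ± 4230, or 79.7-fold higher. The other H2-Ab1 probes gave 65.4-fold and 69.8-fold, so that the log2 ratios of the 4 probes averaged 6.09 ± 0.18 (SD over probes of 1 pair of arrays). H2-Eb1, the β chain of I-E, read 3740 ± 375 and 142982 ± 14298, which is 38.2-fold (33.2 to 44.1).

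Cd74, whose product chaperones new class II molecules to the endosome, stood with the chains. Its probe read 994 ± 104 on the Villin-Cre-labelled array and 125911 ± 12591 on the EP4 cKO-labelled array, which is 127-fold (110 to 146) or 6.99 on the log2 scale.

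Of the 3 genes of H2-M, the peptide exchange factor, 2 were high on the EP4 cKO-labelled array. H2-DMb1, a β chain of H2-M, read 422 ± 51.7 and 36031 ± 3603, which is 85.3-fold (72.8 to 99.9). H2-DMa, the α chain, was dim on the Villin-Cre-labelled array at 139 ± 32.5 and read 7710 ± 771 on the other, at least 55.6-fold higher. Its dim reading lay above the floor, so that bound is the ratio of both readings, and with normexp the ratio was 4.57 on the log2 scale. H2-DMb2, the second β chain gene, was dim on both arrays at 27.5 and 12.4 and has no fold. H2-DMb1 and H2-DMb2 therefore lay on opposite sides of detection on the EP4 cKO-labelled array, although their promoter windows matched at 84.2% of the aligned bases.

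Neither gene of H2-O, the inhibitor of H2-M, gave a fold above 1. H2-Oa, the α chain, was dim on both arrays at 31.0 and 38.4. The brighter H2-Ob probe, for the β chain, was dim at 114 ± 29.1 on the Villin-Cre-labelled array and detected at 95.2 ± 15.4 on the other, and its second probe was dim on both at 30.9 and 14.0. Both genes hold the X and Y letters shown above, as do H2-Aa, H2-Eb1 and H2-DMb1, so the 5 windows with both patterns belong to 3 genes between 38.2-fold and 158-fold higher and to 2 genes without a fold.

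Ciita, which does not bind DNA itself and sets when class II genes are transcribed, was dim on the Villin-Cre-labelled array with both of its probes. The brighter probe read 85.2 ± 30.7 there and 7937 ± 794 on the EP4 cKO-labelled array, at least 63.3-fold higher. The second probe read 28.0 and 435 ± 45.3, at least 3.47-fold higher. With normexp the brighter probe gave 4.83 on the log2 scale. The probes thus gave the same direction and bounds of very different size, and both bounds are limited by the floor of the Villin-Cre-labelled array.

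**Figure D1:**
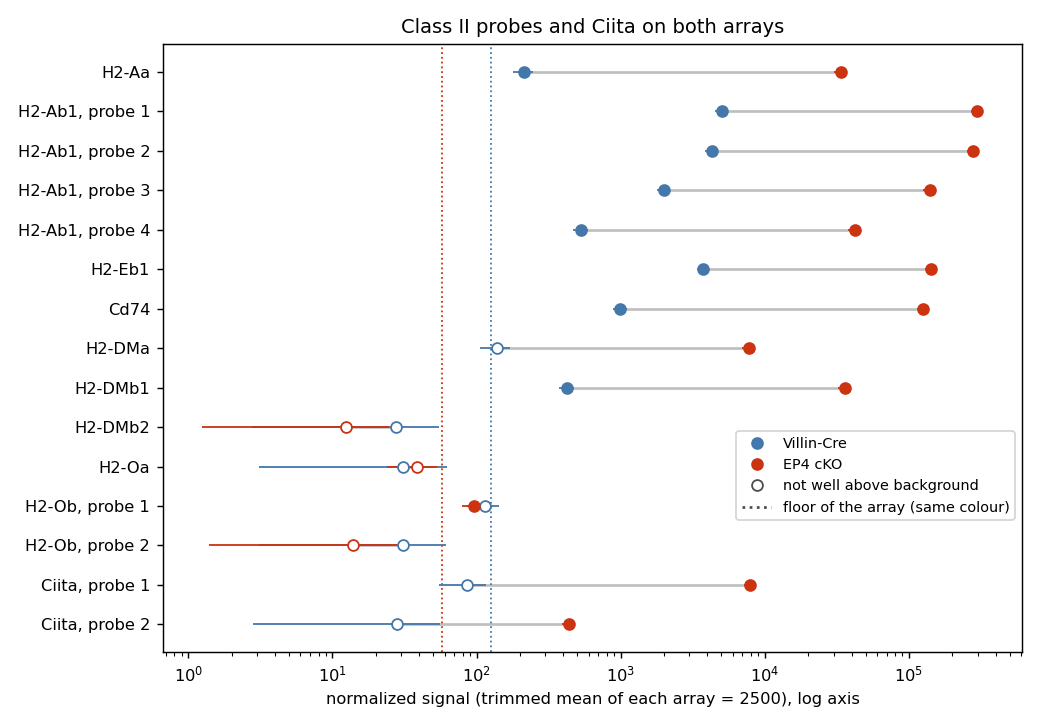
Normalized signal (log axis) of each of the 15 probes on the Villin-Cre-labelled array (blue) and the EP4 cKO-labelled array (red), with open points for dim probes, dotted lines at the floors of 125 and 57.8, and bars for the error given by the scanner software, cut where they would reach 0. The probes of H2-Aa, H2-Ab1, H2-Eb1, Cd74, H2-DMa, H2-DMb1 and Ciita have red points far to the right of the blue ones, while those of H2-DMb2, H2-Oa and H2-Ob stay near or below the floors.

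In all, 5 members were detected on both arrays, 3 on the EP4 cKO-labelled array only and 2 on neither. Among the 22909 genes with a probe, 1491 (6.51%) were detected on the EP4 cKO-labelled array only. A log2 ratio could be given for 8 members, H2-Ob being held at 0, and 7 of them were higher by more than 2-fold and 0 lower. Among all 14668 genes with a value, 4.89% were higher by that threshold and 7.98% lower. The scaling matters for that background, since 38.0% of the calls over all genes were higher as reported, 50.6% with scaling to the 75th percentile and 61.1% with normexp and quantile normalization. It was 58.0% with loess on signal, 48.6% with a trimmed mean over all spots and 93.7% with scaling to the E1A spike-in spots, which moved the median of all genes from -0.10 to 0.83 and the ratio of every gene with it. Over all 22909 genes without a filter on dim probes it was 13.9%. Ratios of the lists below are therefore to be read against -0.10. H2-DMa and Ciita passed the filter on dim probes only through the array on which they were high.

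The median log2 ratio was 5.94 over the 8 members with a value and 6.41 over the 5 measured on both arrays, against -0.10 over all genes with a value and -0.15 over the 12808 genes measured on both. Of those 12808 genes, 4.05% were higher and 6.26% lower by the same threshold. By log2 ratio H2-Aa ranked 1 among them, Cd74 ranked 4, H2-DMb1 ranked 5, H2-Ab1 ranked 12 and H2-Eb1 ranked 22. The order within the group is only partly resolved. The error range of H2-Aa overlapped that of Cd74, and the probes of H2-Ab1 overlapped the range of H2-DMb1, while H2-Eb1 lay below the others measured on both arrays. With normexp and quantile normalization Cd74 (6.85) came before H2-Aa (6.46), and H2-Ab1 (5.97) before H2-DMb1 (5.94).

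**Figure D2:**
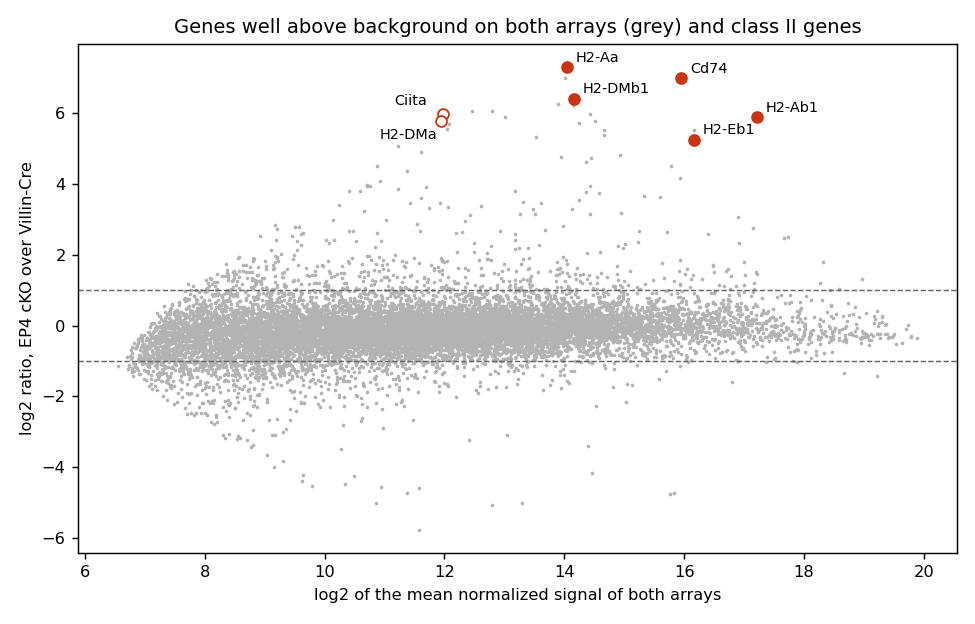
Log2 ratio of EP4 cKO over Villin-Cre against the log2 of the mean normalized signal of both arrays for the genes detected on both (grey) and the class II genes (red), with open red points for the lower bounds of Ciita and H2-DMa and dashed lines at 2-fold. The class II genes lie at log2 ratios of 5.26 to 7.31, at the upper edge of the cloud across a wide span of signal.

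The genes whose ratio lay closest to 6.41, the median of the 5 members measured on both arrays, were of mixed kinds. Ifi47, an interferon-inducible GTPase, read 397 and 30226 (log2 ratio 6.25). Clca4b, a gene of the calcium-activated chloride channel regulator family, read 477 and 35806 (6.23), and Ang6, of the angiogenin ribonucleases, read 4611 and 340386 (6.21). Oas2, an oligoadenylate synthetase of the antiviral response, read 208 and 14046 (6.07), and Mcpt4, a mast cell protease, read 166 and 11093 (6.06). This likeness covers 2 arrays only.

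Of the members, 8 lie in 1 stretch of chromosome 17 that runs from H2-Oa to H2-Ea and holds 15 genes in the annotation used. Among the 7 other genes there, 5 had a value, 4 were more than 2-fold higher and none of them lower, with a median log2 ratio of 3.14. Between H2-DMb1 and H2-Ob lie the genes of class I peptide supply. Psmb9 and Psmb8, subunits of the immunoproteasome, read 4451 and 39696 (log2 ratio 3.16) and 3331 and 32512 (3.29). Tap1 and Tap2, the subunits of the peptide transporter, read 1995 and 17606 (3.14) and 12231 and 30622 (1.32). Brd2, a bromodomain gene between H2-Oa and H2-DMa, read 22147 and 19589 (-0.18).

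High and undetected genes were interleaved along the stretch. H2-DMb2, dim on both arrays, lies between H2-DMa and H2-DMb1, and H2-Ob, without a fold, lies next to H2-Ab1. H2-Eb2, a further β chain gene beyond H2-Eb1, was dim on both arrays at 30.3 and 23.1. Its window holds both letter patterns at chr17:34325537-34325583 on the plus strand, in a stretch shown here because it resembles that of H2-Eb1 while the probes of these genes differ.
H2-Eb2: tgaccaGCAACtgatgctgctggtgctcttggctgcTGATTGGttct
H2-Ea, the α chain gene of I-E, is marked as a transcribed pseudogene in the C57BL/6 reference and had no named probe, and this strain is known for making no I-E α chain. Cd74 and Ciita lie on other chromosomes. The ratio of Cd74 (6.99) lay between those of the chain genes, while Ciita has bounds only, 5.98 and 1.80 for its 2 probes.

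**Figure D3:**
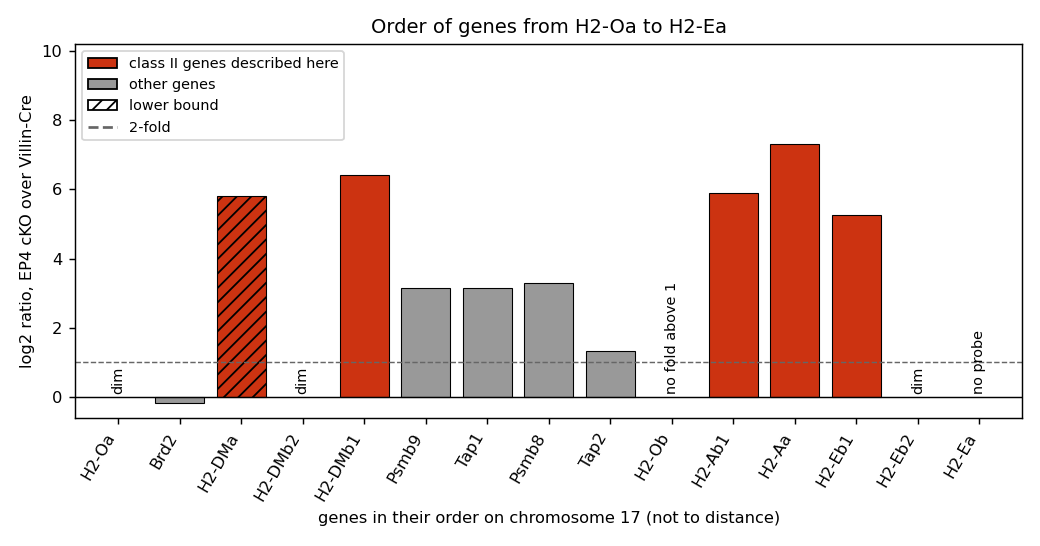
Log2 ratio of EP4 cKO over Villin-Cre for the 15 genes from H2-Oa to H2-Ea in their order on chromosome 17 (not to distance), with class II members in red, other genes in grey, hatching for a lower bound and a dashed line at 2-fold. The red bars of 5.26 to 7.31 flank the grey bars of Psmb9, Tap1, Psmb8 and Tap2 at 1.32 to 3.29, and H2-Oa, H2-DMb2, H2-Ob and H2-Eb2 have no bar because they were dim or gave no fold above 1.

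Of 8 genes for the RFX, NF-Y and CREB factors of class II promoters, 0 were more than 2-fold higher or lower, and their median log2 ratio was -0.06. Rfxank, a subunit of RFX, read 3871 and 2375 (-0.70), Creb1 read 1937 and 1373 (-0.50), and Nfyc, a subunit of NF-Y, read 18393 and 15743 (-0.22), with 0.13 from a second probe and a bound of 0.27 from the dimmest. Rfx5, the DNA-binding subunit of RFX, was dim at 54.8 on the Villin-Cre-labelled array and read 70.5 on the other, with no fold above 1.

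The endosomal enzymes that trim the invariant chain and antigens were also within 2-fold, in 9 of 9 genes with a median of -0.07. Ctss, the protease that makes the last cuts in the invariant chain, read 146916 and 188956 (0.36). Sppl2a, which clears the stub that remains in the membrane, read 6394 and 10774 (0.75), and Ctse read 12870 and 9997 (-0.36). Of 3 genes for class II turnover 1 was more than 2-fold lower, namely Cd83, which protects surface class II from ubiquitination, at 1505 and 464 (-1.70). The ubiquitin ligase genes Marchf1 and Marchf8 gave 0.50 and -0.17.

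Of 12 genes listed for the induction of Ciita, 10 had a value, 1 was more than 2-fold higher and 0 lower, and the median log2 ratio was 0.26. That gene was Irf1, a transcription factor that acts at the Ciita promoter in response to interferon-γ. Irf1 read 29301 and 74994 (1.36), with 1.09 from its second probe. Jak2, a kinase of the interferon-γ receptor, read 1324 and 2403 (0.86), and Irf8, a factor of myeloid and B cells, read 9044 and 13623 (0.59). Ifng itself read 149 and 177 (0.25), near the floor of the Villin-Cre-labelled array, and its receptor genes Ifngr1 and Ifngr2 gave 0.26 and 0.36.

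Of 7 genes that repress Ciita or dampen its induction, 6 had a value, 3 were more than 2-fold higher and none of them lower, with a median of 0.92. That median was 0.34 without a filter on dim probes and above 1 over the genes detected on both arrays. Socs1, a feedback inhibitor of Janus kinases, read 361 and 1802 (2.32). Socs3 read 1214 and 3925 (1.69), and Prdm1, a repressor of Ciita in plasma cells, read 186 and 527, or 2.84-fold higher. An inducer and 3 inhibitors of Ciita or its induction were thus among the genes more than 2-fold higher.

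The class I genes were described beside class II. Of the 16 with a probe, 10 were more than 2-fold higher and none of them lower, with a median log2 ratio of 1.26. Of these 10, Erap1 was within 2-fold with normexp (0.91). The lowest ratio of the class I list was -0.21. The highest was a bound, that of Nlrc5, the counterpart of Ciita for class I. Nlrc5 was dim at 95.2 on the Villin-Cre-labelled array and read 4021 on the other, at least 32.1-fold higher. With normexp it gave 3.82 on the log2 scale. Its second probe gave no fold above 1. B2m, the light chain of class I, read 40590 and 205450 (2.34). H2-K1 and H2-D1, the classical heavy chains, gave 1.20 and 1.52. The class II members were chosen for their signals on these arrays, so the lists were not compared.

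Of 9 genes for costimulatory and checkpoint ligands, which act beside class II on the surface of presenting cells, 5 had a value and 1 was more than 2-fold higher. That gene was Cd274, which encodes PD-L1, at 365 and 2341 (2.68). The median of the list was 0.00, the value at which Cd86 and Icosl were held. It was 1.15 over the 2 genes detected on both arrays. Tnfsf9 was dim at 105 on the Villin-Cre-labelled array and read 206 on the other, at least 1.64-fold higher. Cd80 read 597 and 461 (-0.37). Cd86 was dim at 26.7 on the Villin-Cre-labelled array and read 115 on the other. The second reading is below the Villin-Cre floor of 125, so the bound of Cd86 gave no fold above 1. Cd40, Pdcd1lg2, Tnfsf4 and Cd70 were dim on both arrays. Of 7 genes for the T cell partners of class II, 6 had a value, 1 was more than 2-fold higher and 0 lower, with a median of -0.06. Cd4, the coreceptor, read 6749 and 7641 (0.18), its dimmer probe gave a bound of -1.31, and the CD3 chain genes Cd3g, Cd3d and Cd247 gave 1.28, -0.79 and -0.50. The probes of Cd3d disagreed in direction, the second reading 650 and 1215 (0.90). Those of Cd247 disagreed on detection. The probe used read 17305 and 12254. Another was dim at 71.1 on the Villin-Cre-labelled array and read 108 on the other, and the dimmest was dim on both.

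**Figure D4:**
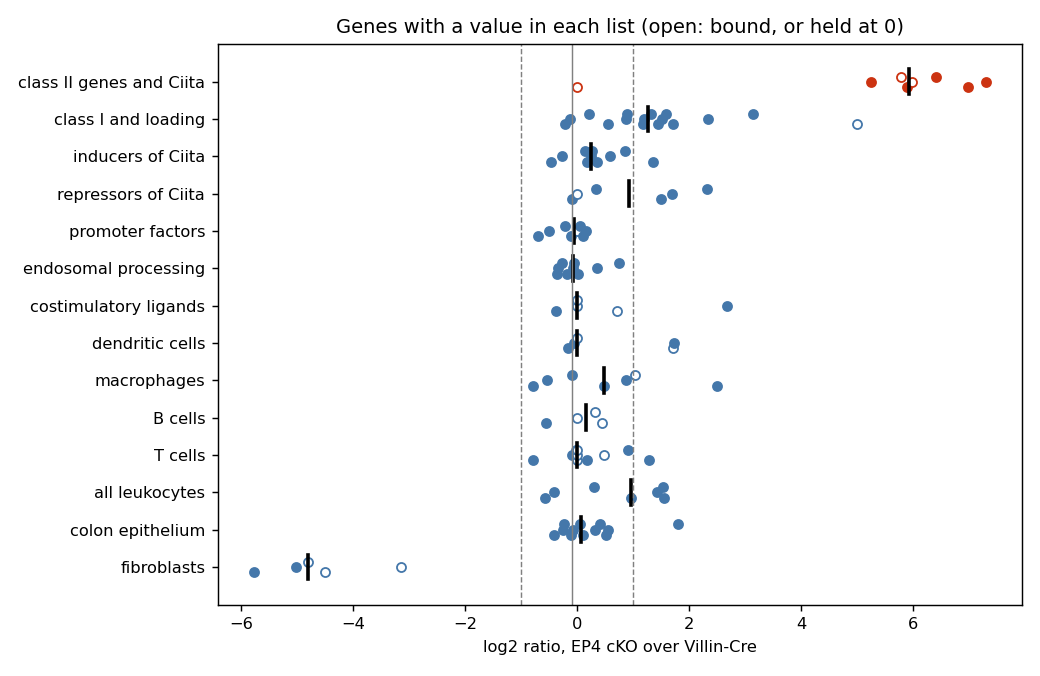
Log2 ratio of EP4 cKO over Villin-Cre for the genes with a value in each list (points), with open points for bounds or genes held at 0, black bars for list medians, a grey line at -0.10 for the median of all genes and dashed lines at 2-fold. The class II genes and Ciita lie at 5.26 to 7.31 apart from H2-Ob at 0, the class I list has its median at 1.26, the promoter factors and endosomal enzymes lie between -0.70 and 0.75, and the fibroblast genes lie at -5.77 to -3.15.

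The cell types that make class II were followed through their markers, since in RNA of whole colon a change in the number of cells of a type and a change in RNA per cell cannot be told apart. The summed signal of the 3 chain genes was 8977 on the Villin-Cre-labelled array and 475194 on the EP4 cKO-labelled array. Beside it, 3 of 8 genes shared by all leukocytes were more than 2-fold higher and none of them lower, with a median of 0.97 and a summed signal of 7416 and 13347. Ptprc, which encodes CD45, read 416 and 813 (0.97), Lcp1 gave 1.55, Coro1a 1.53 and Cd52 1.43, while Laptm5 gave -0.58. Lcp1 was within 2-fold with the mean of its probes (0.91), and Arhgdib, within 2-fold at 0.31, gave 1.41 with its second probe.

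Of 12 dendritic cell genes 5 had a value, 2 were more than 2-fold higher and 0 lower, and the list summed to 239662 and 214507. Without Siglech, which made up nearly all of that signal, it summed to 872 and 1475. The probes of Siglech disagreed on detection, the second being dim on both arrays at 28.4 and 13.0. Itgax, which encodes CD11c, read 152 and 505 (1.73) and Itgae was at least 3.30-fold higher, while Flt3, Xcr1, Clec9a, Cd209a, Batf3, Clec10a and Sirpa were dim on both arrays. Of 12 macrophage and monocyte genes 7 had a value, 2 were more than 2-fold higher and 0 lower. They summed to 130521 and 461079, and without Ly6c2 to 64905 and 88774. Most of that rest was Itgam at 49347 and 68597 (0.48), whose second probe was dim at 145 on the Villin-Cre-labelled array and gave no fold above 1. Ly6c2 read 65616 and 372306 (2.50), Cx3cr1 was at least 2.04-fold higher (0.59 on the log2 scale and within 2-fold with normexp), Cd14 read 8483 and 15582 (0.88), Csf1r read 4874 and 2817 (-0.79) and Cd68 read 373 and 351 (-0.09). Adgre1, Fcgr1, Cd163, Lyz2 and Ccr2 were dim on both arrays.

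B cell genes were mostly near or below the floors, with 4 of 10 having a value, 0 more than 2-fold higher or lower and a summed signal of 951 and 823. Cd22 read 389 and 265 (-0.55), and Pax5 and Cd79b, dim on the Villin-Cre-labelled array, were at least 1.36-fold and 1.24-fold higher, while Ms4a1, Cd79a, Blk, Cr2, Fcer2a and Fcrla were dim on both arrays. Of 10 T cell genes 1 was more than 2-fold higher, Cd3g, which was within 2-fold with normexp (0.88). The T cell list had a summed signal of 13425 and 14179. Its median of 0.00 is the value at which Cd8a, Cd28 and Trat1 were held. That median was 0.08 over the genes detected on both arrays, 0.27 with loess and 0.30 without a filter on dim probes. After Cd3g, Cd2 had the next largest ratio at 231 and 434 (0.91). Of 5 genes listed for group 3 innate lymphoid cells, some of which carry class II, 1 had a value and 0 were more than 2-fold higher or lower, with summed signals of 927 and 550. Il1r1 read 761 and 450 (-0.76), while Il22, Il23r, Il17a and Ncr1 were dim on both arrays. The part of any of these cells in the class II signal was not tested.

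The epithelium, in which EP4 was targeted, was well measured on both arrays. Of 12 colon epithelium genes 11 were within 2-fold, with a median of 0.08 and a summed signal of 2920645 and 3398083, and Krt20, a keratin of surface cells, read 146575 and 510711 (1.80). Epcam and Vil1 gave 0.56 and 0.52. Of 7 fibroblast genes 5 had a value and 5 were more than 2-fold lower, with a median of -4.81 and a summed signal of 13216 and 315. Dcn read 6006 and 110 (-5.77), Col1a2 read 3613 and 111 (-5.03), and Col3a1 was at least 28.0-fold lower. With normexp and quantile normalization the fibroblast median was -2.96, with Dcn at -4.17, Col1a2 at -3.33 and Col3a1 at -2.96, and Cnn1 of the smooth muscle list was at -1.03. Of 7 smooth muscle genes 1 was more than 2-fold lower, namely Cnn1 (-2.73), with a summed signal of 33007 and 47404, Actg2 and Acta2 at 0.72 and 0.62, and Myh11 dim on both arrays. A second Acta2 probe had the opposite direction, at 451 and 302 (-0.58). Of 7 endothelial genes 2 had a value, Pecam1 (-0.18) and Vwf (0.07), with a summed signal of 1294 and 1244. Second or further probes of Itgax, Cx3cr1, Cd68, Cd22, Cd80, Ptprc and Cnn1 were dim on both arrays. Whether the tissue taken for the arrays differed in its layers was not tested.

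**Figure D5:**
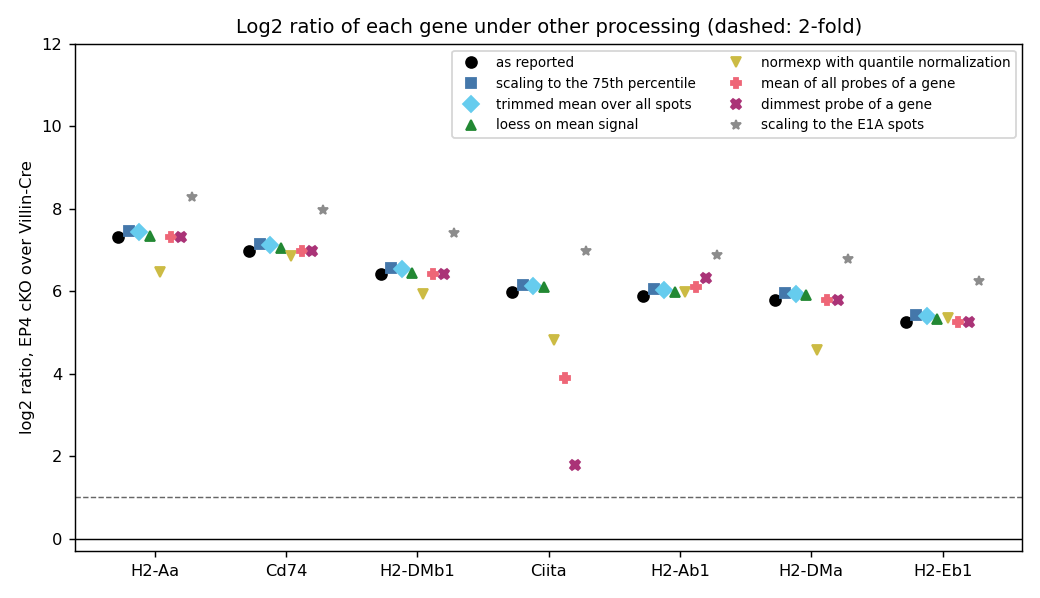
Log2 ratio of EP4 cKO over Villin-Cre for the 7 members more than 2-fold higher, as reported and under other processing, with a dashed line at 2-fold. All points lie above the line, H2-Aa between 6.46 and 8.30 and H2-Eb1 between 5.26 and 6.25, and Ciita spreads from 1.80 with its dimmest probe to 6.98 with scaling to the E1A spots.

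Other processing moved the sizes more than the directions. The ranges of the log2 ratios were 6.46 to 8.30 for H2-Aa, 6.85 to 7.98 for Cd74, 5.94 to 7.41 for H2-DMb1, 5.89 to 6.89 for H2-Ab1, 5.26 to 6.25 for H2-Eb1, 4.57 to 6.79 for H2-DMa and 1.80 to 6.98 for Ciita. Of these genes Ciita depended on the choice of probe, with 3.89 for the mean of its probes and 1.80 for the dimmer one.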

How the data were processed

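Expression was measured in 2 samples, 1 array per genotype, grouped by the genotype in the labels. The authors deposited scanner intensities per spot, from which Feature Extraction had subtracted background and spatial trends, together with its flags for control, outlier, saturated and well-above-background spots. The file headers name version 12.0.3.1 and the submitters' processing notes 11.5.1.1. The deposited intensity is not scaled between arrays, so the global scaling of the study's methods was repeated: control and outlier spots were left out, spots of a probe were averaged, and the mean left after trimming 2% of the probes from each end was set to 2500 (factors 3.45 for Villin-Cre and 2.68 for EP4 cKO). Over 289 probes with several spots the median SD of the log2 ratio between spots was 0.03. The number of arrays limits the precision.

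Probes were named by RefSeq accession against a table of GRCm38.p6, which matched 32989 of 56593 (58.3%). The array grid refers to an older build, so the coordinates given are those of the RefSeq promoter windows only. The brightest probe, by its mean over both arrays, stands for a gene. On a dim side the floor of the array replaced any signal below it, and a gene whose bound did not exceed 1 was counted at a log2 ratio of 0. More than 2-fold, the threshold of the study's methods, was counted as higher or lower, with no test. The members, gene lists and letter patterns were chosen with earlier results of these data known. Some single genes are not reported here and were left out of the lists. Named are all members, up to 3 genes of each list with the largest absolute ratios, the genes a count turns on, and the 5 other genes closest to the members' median. Further list genes, such as Cd4, H2-K1, H2-D1, Ifng with its receptors, Csf1r, Cd68 and Ptprc, were named for their role after their values were seen.

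The alternatives were scaling to the 75th percentile, normexp (offset 50) with quantile normalization on the median spot signal (the mean signal was not used here), a trimmed mean over all spots, a loess fit of the ratio against signal with a span of 0.3, 2 filters on dim probes, the mean of all probes, outlier spots kept, and thresholds of 3-fold and 1.5-fold. Scaling to the E1A spike-in spots and the dimmest probe were alternatives chosen after seeing the data. On simulated data drawn from the Villin-Cre-labelled array the calculation was checked: all 200 changed probes of 25683 were recovered with 0 false calls at a noise of 0.1 (log2) and a true log2 change of 2. Beside that noise the change lay far beyond the 2-fold threshold, so full recovery was nearly certain. The check covers the arithmetic only and no variation between mice or arrays. Software was limma 3.58.1 in R 4.3.3, and Biopython 1.88, pandas 2.3.3, numpy 2.4.6, matplotlib 3.10.9 and statsmodels 0.14.6 in Python 3.11.15.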

Additional observations from a re-analysis of the deposited data

How the results depend on the processing

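The count of 7 members more than 2-fold higher held under 11 of 12 alternatives and was 5 when only genes detected on both arrays were kept. The 38 member and list genes past 2-fold gave 368 pairs with the 10 alternatives that give single ratios, and 0 changed sign. Some genes had no value under an alternative, and Lcp1 and Nlrc5 fell to 0 with the dimmest probe. The changes of scaling moved nearly all ratios by a shared amount, too small to turn the sign of a gene past 2-fold. Those alternatives were therefore no check of sign. The medians of the promoter factors (-0.06 as reported) and endosomal enzymes (-0.07) became 0.02 and 0.09 with scaling to the 75th percentile. The median log2 ratio of the members was 5.94 as reported, 5.65 with normexp and quantile normalization, 6.41 over genes detected on both arrays, 6.32 with the dimmest probe of each gene and 6.93 with scaling to the E1A spots. The share of all genes more than 2-fold higher was 4.89% as reported, 7.46% with loess, 2.22% at 3-fold, 9.87% at 1.5-fold and 36.1% with the E1A spots, since that scaling moved the median of all genes from -0.10 to 0.83. The count of list genes more than 2-fold higher was 24 as reported, 11 at 3-fold and 64 with the E1A spots. Cd3g, Cx3cr1 and Erap1 were within 2-fold with normexp, Cd83 with the E1A spots, Lcp1 with the mean of its probes or the dimmest, and Nlrc5 with the dimmest. Normexp also took the fibroblast median from -4.81 to -2.96. Naming by another column of the arrays was not run. No paired analysis was possible because there was 1 array per genotype, and no array could be left out. Signal over background limits H2-DMa and Ciita to bounds and leaves H2-DMb2 and H2-Oa without a fold.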
